A study of Mus musculus with 8 samples.

Results

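The metallothionein genes Mt1, Mt2, Mt3 and Mt4, and Mtf1, which encodes their metal-sensing transcription factor, were examined in mouse full-grown oocytes. These 5 genes were taken by symbol from a table of 35976 gene symbols, and all 5 were in it. Mt1 was selected on its counts in these libraries, which rose strongly and evenly in all 4 mutant libraries while those of Mt2 did not. The Mt1 and Mt2 values are therefore given as a description, with no test. Mtf1, Mt3 and Mt4 were added by name. Of the 5 genes, 4 passed the filter on low counts that left 16847 genes for testing, and Mt3 did not.

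Polyadenylated RNA was sequenced from pools of about 20 full-grown oocytes taken from ovaries and freed of the zona pellucida, with 2 libraries in each of 4 groups. The H2A.Z line had a control group, labelled wild type, and a group whose label is a double knockout (DKO) of H2A.Z.1 and H2A.Z.2, the genes for a histone H2A variant found at promoters. The Mll2 line had a wild-type (WT) group and a knockout (KO) group for Mll2, a methyltransferase for lysine 4 of histone H3. The sources used here do not give the alleles, any Cre driver, the age or the strain. They also do not say whether the libraries of a group came from separate animals, so each p-value reflects only how far these particular libraries lie apart.

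Metallothioneins are small, cysteine-rich proteins that bind zinc and copper through their thiol groups, buffer free zinc in the cell and can protect it from cadmium and from oxidants. MTF1 is a zinc-finger protein that moves to the nucleus when free zinc rises, binds metal response elements (MREs) in promoters and switches on Mt1, Mt2 and the zinc exporter gene Slc30a1. Mt1 and Mt2 are widely expressed and usually induced together, Mt3 is best known from the brain and Mt4 from stratified squamous epithelium. Oocytes take up zinc as they mature, and zinc is needed for their meiotic divisions.

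The metallothionein genes lie next to one another on the plus strand of chromosome 8, in the order Mt4, Mt3, Mt2 and Mt1. In the mm10 assembly, Mt4 spans chr8:94137204-94139031, Mt3 chr8:94152607-94154148, Mt2 chr8:94172618-94173567 and Mt1 chr8:94178883-94180327. The cluster covers 43.1 kb, with 0 other named genes of the count table inside it. Mtf1 lies apart, at chr4:124802549-124849800 on the plus strand. These spans are those of RefSeq on GRCm38.p6, the assembly also called mm10. The span of Mt1 takes in every RefSeq transcript model and begins upstream of the gene start used for its promoter below.

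The coding sequences of Mt1 and Mt2 are shown because the measured contrast between these genes depends on reads being assigned to the right one. Each is given 5′ to 3′ from its start codon, with capitals at the bases that differ between them.
Mt1 coding sequence: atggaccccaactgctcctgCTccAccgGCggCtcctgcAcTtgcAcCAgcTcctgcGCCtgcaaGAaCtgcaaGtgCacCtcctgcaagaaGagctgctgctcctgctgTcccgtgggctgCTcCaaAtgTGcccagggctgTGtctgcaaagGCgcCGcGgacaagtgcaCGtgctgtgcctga
Mt2 coding sequence: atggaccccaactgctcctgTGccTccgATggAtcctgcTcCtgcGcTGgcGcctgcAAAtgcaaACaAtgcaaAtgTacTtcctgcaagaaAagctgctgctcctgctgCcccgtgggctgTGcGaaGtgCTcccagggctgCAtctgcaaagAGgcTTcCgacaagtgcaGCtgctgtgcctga
Both have 186 bases, of which 38 differ, so they are 79.6% identical, and the longest stretch they share is 20 bases. Each encodes 20 cysteines in 61 codons. The coding sequence of Mt3 was 66.2% and that of Mt4 66.8% identical to that of Mt1 over the aligned bases. None of the 1292 different stretches of 50 bases in the annotated Mt1 transcripts occurred in another annotated gene, so a read of that length from Mt1 could be placed on 1 gene. For Mt2, 45.85% of such stretches were shared with the antisense gene Gm45774, not analysed here, and for Mtf1 7.55% were shared with the antisense gene 1110065P20Rik. The libraries were made with a kit that does not mark the strand. Reads from the shared stretches can therefore be assigned to either gene, so the Mt2 counts can be too high or too low.

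The promoters of Mt1 and Mt2 are shown because both genes are textbook targets of MTF1. The RefSeq sequence on GRCm38.p6 runs from 250 bases before to 50 bases after the gene start that the promoter table takes from RefSeq, 5′ to 3′ on the plus strand. Capitals mark every match, on either strand, to the MRE core written as TGCACNC or TGCGCNC.
Mt1 promoter, chr8:94178839-94179138: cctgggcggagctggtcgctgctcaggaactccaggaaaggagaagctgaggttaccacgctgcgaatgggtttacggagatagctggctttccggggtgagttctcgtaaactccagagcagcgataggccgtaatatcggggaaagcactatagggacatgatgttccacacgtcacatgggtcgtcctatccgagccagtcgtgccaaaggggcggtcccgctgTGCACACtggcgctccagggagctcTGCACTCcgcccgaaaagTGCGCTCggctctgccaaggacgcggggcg
Mt2 promoter, chr8:94172368-94172667: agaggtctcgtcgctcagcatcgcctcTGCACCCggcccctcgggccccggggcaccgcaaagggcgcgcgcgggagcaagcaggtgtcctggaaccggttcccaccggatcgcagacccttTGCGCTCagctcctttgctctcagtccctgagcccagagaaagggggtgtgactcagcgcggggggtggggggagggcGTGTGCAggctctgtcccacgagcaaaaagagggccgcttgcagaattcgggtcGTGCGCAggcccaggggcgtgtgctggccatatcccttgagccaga
The Mt1 window held 3 matches and the Mt2 window held 4. The windows of Mt3 and Mt4 held 1 match each, and that of Mtf1 held 0. Among 32851 RefSeq promoter windows of the same length, 25.7% held at least 1 match and 1.97% held at least 3. The windows of Mt1 and Mt2 also each held 24 CG dinucleotides, against a median of 7 over all windows, with 25 for Mtf1, 8 for Mt3 and 5 for Mt4. In these windows Mt1 and Mt2 thus held the most matches of the 5 genes. The Mt1 matches include ones that begin 2 and 20 bases after the gene start used here. Matches outside a window were not counted, so the counts of Mt1 and Mt2 were not set against their RNA levels.

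The libraries held 20309233 to 30087863 counts in all. The targeted genes were checked first. Kmt2b, which encodes MLL2, was lower in Mll2 KO and went from 41.9 and 42.4 to 8.73 and 9.28 CPM, the counts scaled to a common library total. H2afz and H2afv, the 2 genes for H2A.Z, went against the label: H2afz was at 23.9 and 29.97 CPM in the controls and at 322 and 317 in the DKO-labelled libraries, and H2afv at 108 and 107 against 285 and 294. A count over the whole gene need not register a deletion of part of it, and the sources used here do not give the deleted part. Such a deletion and an exchange of the 2 labels of this line cannot be told apart here. H2afz was also higher in Mll2 KO, at 19.4 and 14.99 CPM against 7.04 and 7.09 in Mll2 WT. Its log2 difference there was 1.28 (edgeR adjusted p = 1.21e-05). H2afv differed by 0.19 in the Mll2 line and was not called (edgeR adjusted p = 0.165). Why these counts were higher, and not only unchanged, was not tested. Below, a mutant library is one labelled as DKO or KO, and a control library is one labelled as control or WT. Every direction below for the H2A.Z line is therefore that of the DKO-labelled libraries. The 12 oocyte markers summed to between 18396 and 26055 CPM. The 22 granulosa cell markers summed to 556 to 563 CPM in the H2A.Z control libraries, 593 to 642 in the DKO-labelled libraries, 811 to 933 in Mll2 WT and 586 to 679 in Mll2 KO, and more of this sum came from Serpine2 than from any other marker, with Foxl2, Amh and Amhr2 too low to test. The 10 theca and stroma markers summed to at most 4.50 CPM and the 10 blood and endothelial markers to at most 44.6, with Col3a1, Tcf21, Tagln, Hba-a1, Hbb-bs and Cdh5 at 0 in every library.

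Mt1 was a scarce transcript in the libraries labelled control or WT and one of the most abundant in those labelled DKO or KO. The counts of Mt1 were 158 and 85 in the H2A.Z control libraries and 28305 and 29107 in the DKO-labelled libraries. They were 41 and 67 in Mll2 WT and 34900 and 34845 in Mll2 KO. All 4 mutant libraries lay far above all 4 controls, and the mutant libraries of a group agreed more closely than the control libraries did. High and even mutant counts are what Mt1 was chosen for, and the control libraries held far fewer counts to compare. The larger count was 1.10 times the smaller after normalisation in the DKO-labelled group and 1.00 times in Mll2 KO, against 2.41 times in the H2A.Z control libraries and 1.63 times in Mll2 WT.

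In CPM, Mt1 was at 5.78 ± 3.38 (SD, n = 2) in the H2A.Z control libraries and 1318.5 ± 89.1 in the DKO-labelled group. It was at 1.78 ± 0.604 in Mll2 WT and 1173.9 ± 4.03 in Mll2 KO. The log2 difference was 7.87 ± 0.34 (SE), a 234-fold difference, in the H2A.Z line and 9.36 ± 0.37, a 657-fold difference, in the Mll2 line. The mutant levels of the lines lay nearer to each other than the control levels did, with Mt1 higher by 1.65 ± 0.38 on the log2 scale in the H2A.Z control libraries than in Mll2 WT. Mt1 took up 0.113% and 0.122% of all counts in the DKO-labelled libraries and 0.130% and 0.132% in Mll2 KO, against at most 0.000778% in a control library. Ranked by count among 35976 symbols, Mt1 was between 8219 and 12375 in the controls, at 103 and 98 in the DKO-labelled libraries, and at 59 and 57 in Mll2 KO.

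**Figure D1:**
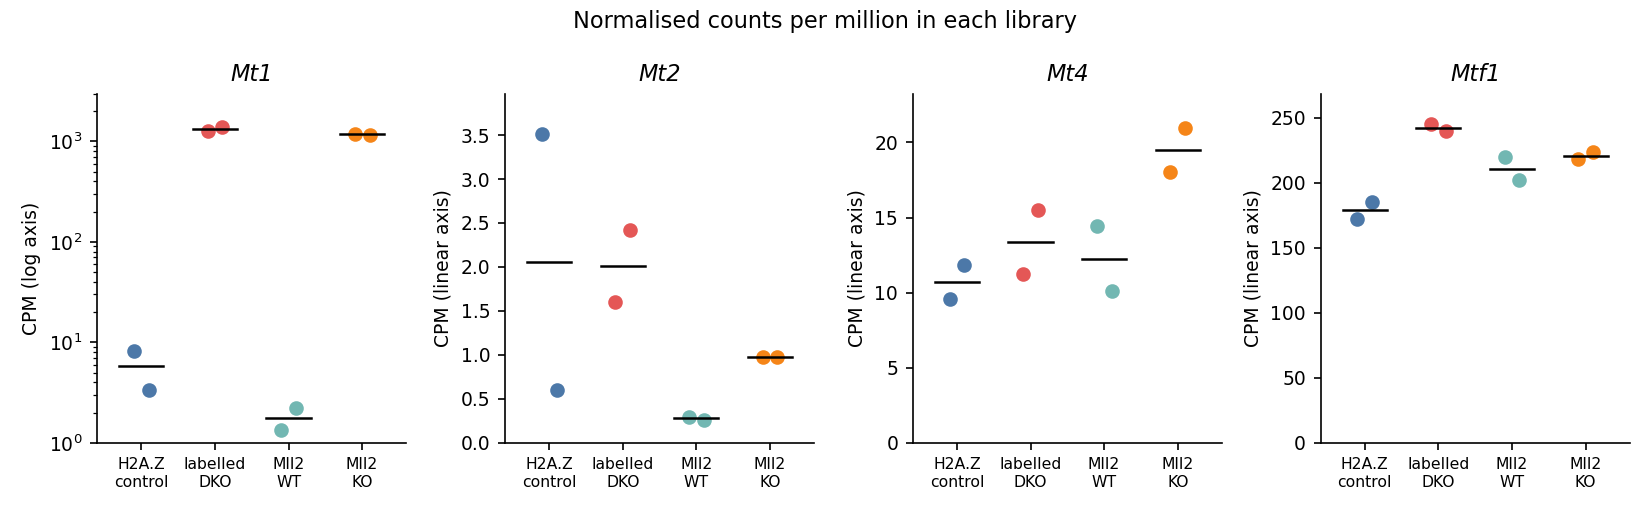
Normalised counts (CPM) of Mt1 (log axis), Mt2, Mt4 and Mtf1 (linear axes) in each group, with 1 point per library and a bar at the mean. Mt1 lay at 1171 CPM or more in all 4 mutant libraries and below 9 CPM in all 4 controls, whereas Mt4 stayed between 9.57 and 20.97 CPM and Mtf1 between 172 and 245.

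Each value is from pooled oocytes, so a change in some oocytes and a change in all of them cannot be told apart. The table gives 1 count per symbol and no position along the transcript. RNA from the Mt1 locus and RNA from any introduced construct that carries Mt1 sequence therefore cannot be told apart, and sequence from the 3′ end of Mt1 has been used as a polyadenylation signal in transgenes. The sources used here do not say whether such a construct was present in these animals. Of the 22 granulosa markers 15 were tested, and their median log2 difference was 0.10 in the H2A.Z line and 0.75 in the Mll2 line, against 0.12 and 0.02 over all tested genes. In the H2A.Z line 5 were called higher and 2 lower, where 19.4% of all tested genes were called higher and 11.5% lower. In the Mll2 line 4 were called higher and 5 lower, where the shares were 14.4% and 16.2%. Serpine2 differed by 0.02 and -0.62 on the log2 scale in the H2A.Z and Mll2 lines. The part of these cells in the Mt1 values was not tested.

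Mt2, the neighbour that lies next to Mt1 and is usually induced with it, stayed scarce in every library. Its counts were 68 and 15 in the H2A.Z control libraries and 36 and 51 in the DKO-labelled libraries. In the Mll2 line they were 9 and 8 in WT and 29 and 29 in KO. The ranges of the H2A.Z line overlapped, the control libraries lying on either side of both DKO-labelled libraries, whereas in the Mll2 line both KO libraries lay above both WT libraries. The CPM were 2.06 ± 2.06 and 2.01 ± 0.583 (SD, n = 2) in the H2A.Z line and 0.281 ± 0.0238 and 0.976 ± 0.00227 in the Mll2 line. The log2 difference of Mt2 was 0.00 ± 0.52 (SE) in the H2A.Z line and 1.78 ± 0.69 in the Mll2 line. The value in the H2A.Z line rests on the first control library, since it was 1.74 without that library and -0.81 without the second control.

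The ratio of Mt1 to Mt2 shows the change within each library, without reference to library size. There were 2.32 and 5.67 Mt1 counts per Mt2 count in the H2A.Z control libraries, and 786 and 571 in the DKO-labelled libraries. The ratios were 4.56 and 8.38 in Mll2 WT and 1203 and 1202 in Mll2 KO. Mt1 thus outnumbered Mt2 in every library, and by far more in all 4 mutant libraries. As a share of the counts of both genes, Mt1 made up 69.9% (exact 95% binomial interval 63.5% to 75.8%) and 85% (76.5% to 91.4%) in the H2A.Z control libraries. In Mll2 WT the shares were 82.0% (68.6% to 91.4%) and 89.3% (80.1% to 95.3%). The lowest mutant share was 99.83% (99.77% to 99.87%), in the second DKO-labelled library. These intervals cover counting error only, and they overlapped among all controls except the first H2A.Z control, whose interval ended below the lower bounds of 2 of the others.

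**Figure D2:**
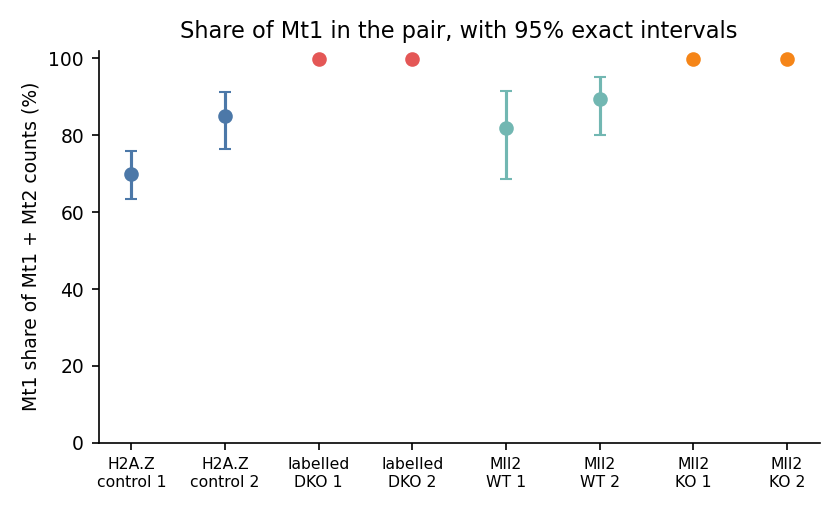
Share of Mt1 in the summed counts of Mt1 and Mt2 in each of the 8 libraries, in percent, with exact 95% binomial intervals that cover counting error only. The 4 control libraries lay between 69.9% and 89.3%, and the 4 mutant libraries all lay above 99.8%.

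Mt3, the metallothionein best known from the brain, was all but undetected. It had 3 counts over the 8 libraries, 1 each in an H2A.Z control, an Mll2 WT and an Mll2 KO library. In a library without counts, the limit set by 3 counts is 0.0997 to 0.148 CPM, and a difference between groups was not detectable at this depth.

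Mt4, best known from squamous epithelium, was present at a low level in every library. Its CPM were 9.57 and 11.8 in the H2A.Z control libraries, 11.2 and 15.5 in the DKO-labelled libraries, 14.4 and 10.1 in Mll2 WT, and 18.0 and 20.97 in Mll2 KO. Both KO libraries lay above both WT libraries, whereas the ranges of the H2A.Z line overlapped. Mt4 was higher by 0.67 ± 0.21 (log2, SE) in Mll2 KO (edgeR quasi-likelihood test, adjusted p = 0.0227), or 1.59-fold. In the DKO-labelled libraries the difference was 0.32 ± 0.21, with a 95% interval from -0.14 to 0.77 (edgeR adjusted p = 0.285), and the effects of the 2 lines did not pass the test of their difference (edgeR adjusted p = 0.445). The Mll2 call was lost without the second WT library (0.42, adjusted p = 0.289) or without the second KO library (0.51, adjusted p = 0.0982).

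Mtf1, the gene of the factor itself, changed little beside Mt1. Its CPM were 172 and 185 in the H2A.Z control libraries, 245 and 240 in the DKO-labelled libraries, 219 and 202 in Mll2 WT, and 218 and 223 in Mll2 KO. The DKO-labelled libraries lay above all 6 others, while WT and KO overlapped. Mtf1 was higher by 0.44 ± 0.10 (log2, SE), or 1.36-fold, in the DKO-labelled libraries (edgeR adjusted p = 0.00346). Without the first H2A.Z control the difference was 0.39 and missed the threshold (adjusted p = 0.0616). In the Mll2 line the difference was 0.07 ± 0.10 (adjusted p = 0.630), with a 95% interval from -0.14 to 0.28. The test of the difference between the lines gave 0.37 ± 0.14 (edgeR adjusted p = 0.0728).

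Of the members not used in the choice, Mtf1 was called in the H2A.Z line, where 30.9% of all tested genes were called, and Mt4 in the Mll2 line, where 30.6% were. With 2 such members tested in each line, a count of 1 says nothing about them beyond that background. Neither Mt4 nor Mtf1 was called in the test of the difference between the lines, which called 19.5% of tested genes (12.9% higher and 6.68% lower). Between the 2 control groups 44.3% of tested genes were called (19% higher and 25.3% lower), but neither Mt4 (-0.19 ± 0.21, adjusted p = 0.490) nor Mtf1 (-0.24 ± 0.10, adjusted p = 0.0622).

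Set per kilobase of annotated exon, the order of the levels turned over between controls and mutants. In the H2A.Z control libraries Mt4 was at 26.9 ± 4.03 CPM per kb, Mtf1 at 20.1 ± 1.05, Mt1 at 4.64 ± 2.71 and Mt2 at 3.50 ± 3.51. Mt1 was divided by 1246 bases of exon, although its annotated transcripts have 549 to 1085 bases, and Mt2 by 588. The Mt1 values per kilobase can therefore be too low beside those of Mt2. In Mll2 WT the order was the same, with Mt4 at 30.8 ± 7.74, Mtf1 at 23.6 ± 1.40, Mt1 at 1.43 ± 0.485 and Mt2 at 0.477 ± 0.0405, and there Mt4 and Mtf1 lay within 1 SD. In the DKO-labelled libraries Mt1 led with 1058.2 ± 71.5 CPM per kb, ahead of Mt4 at 33.6 ± 7.64, Mtf1 at 27.2 ± 0.438 and Mt2 at 3.42 ± 0.991. In Mll2 KO the values were 942.1 ± 3.24 for Mt1, 49.0 ± 5.27 for Mt4, 24.8 ± 0.405 for Mtf1 and 1.66 ± 0.00385 for Mt2. The most abundant metallothionein RNA per kilobase was thus Mt4 in both control groups and Mt1 in both mutant groups.

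Mt1 stood at the edge of all 16847 tested genes in both lines. Its log2 difference ranked the second highest in the H2A.Z line, below Clstn2 at 7.91, and the highest in the Mll2 line, where the next gene, Mir3473a, was at 8.22. There were 18 genes with a difference over 5 in the H2A.Z line and 14 in the Mll2 line, and 1 gene, Mt1, in both. A ranking of the rise shared by the lines left out predicted Gm, LOC and Rik symbols, microRNAs and pseudogenes. After Mt1, its highest genes at 10 CPM or more in their highest group were Fshr, Usp17lb, Ccl2, Krt79, Fam174b and Dcc. Fshr, the receptor for follicle-stimulating hormone, differed by 4.36 and 3.23 on the log2 scale in the H2A.Z and Mll2 lines, and the chemokine gene Ccl2 by 3.62 and 2.65. Krt79, a keratin gene, differed by 2.45 and 5.0. Fshr is also 1 of the 22 granulosa markers, whose sums are given above, and the part of those cells in its values was not tested.

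**Figure D3:**
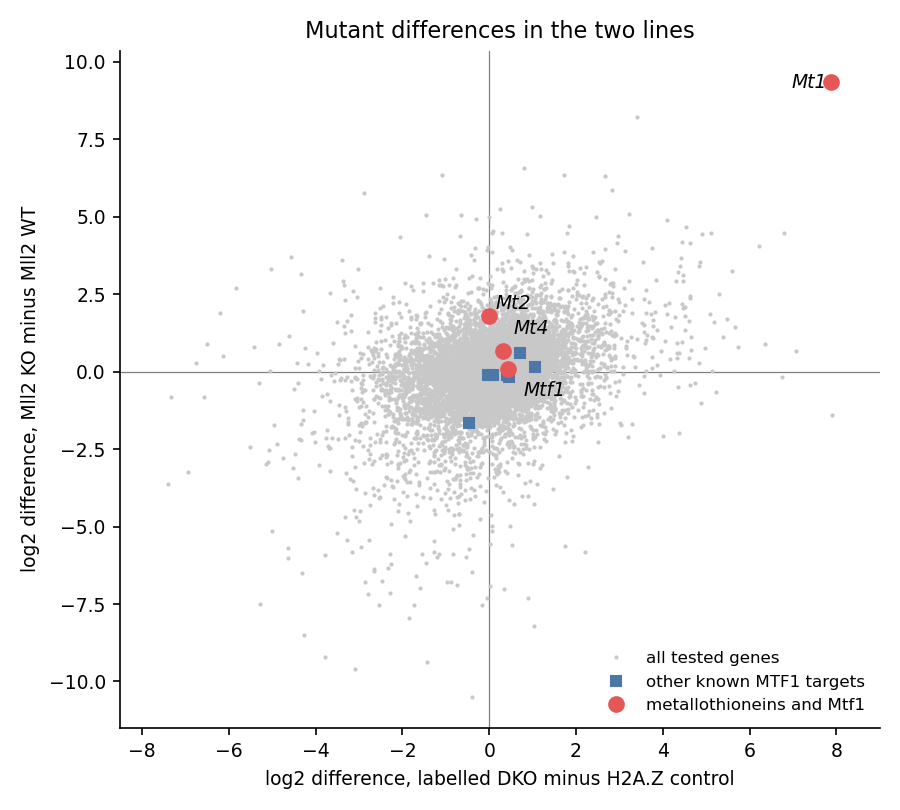
Log2 difference of each of 16847 tested genes in the H2A.Z line (horizontal axis) and the Mll2 line (vertical axis), with metallothionein genes and Mtf1 in red and 7 other known MTF1 targets in blue. Mt1 stands alone at 7.87 and 9.36, whereas Mt2, Mt4, Mtf1 and most of the other targets lie near the centre of the cloud.

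Across the 8 libraries, the other members followed Mt1 loosely. On log2 CPM, Pearson's r with Mt1 was 0.548 for Mt2, 0.595 for Mt4 and 0.684 for Mtf1, as a description over libraries that fall into 2 separate clusters of Mt1 level. With the same kinds of symbol left out, 8125 other genes were at 10 CPM or more in their highest group. Those most like Mt1 by this measure were Dlgap1 (r = 0.992), Haus4 (0.978) and Ceacam2 (0.975), followed by Vapa, Glul, Luc7l, Tomm34 and Siva1. These genes shared the pattern of high mutant and low control libraries but not the size of the difference. Dlgap1, which encodes a synaptic scaffold protein, differed by 0.95 and 1.10 on the log2 scale in the H2A.Z and Mll2 lines, Haus4, which encodes an augmin subunit of the spindle, by 0.62 and 0.82, and Glul, the gene of glutamine synthetase, by 1.13 and 1.26. Siva1 differed by 0.32 and 0.31.

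The other genes known as MTF1 targets that were tested differed far less than Mt1. They include Slc39a10, which MTF1 is known to repress, so the counts and medians below pool induced and repressed targets. Of 11 such genes, 7 were tested, and Slc40a1, Ndrg1, Pgf and Slc30a10 were too low. In the DKO-labelled libraries 3 were called higher and 0 lower, where 19.4% of all tested genes were called higher and 11.5% lower. In Mll2 KO 1 was called higher and 1 lower, where the shares were 14.4% and 16.2%. The median log2 difference of the 7 was 0.42 in the H2A.Z line, against 0.12 over all tested genes, and -0.12 in the Mll2 line, against 0.02. Fewer were called higher in the H2A.Z line without the first H2A.Z control or the second DKO-labelled library. In that line 1 target, the selenoprotein H gene, was called lower with scaling by library totals, without the low-count filter, and with the line fitted alone. In Mll2 KO 0 were called higher without the second WT library.

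Slc30a1, which encodes the zinc exporter of the plasma membrane and is the best-known target of MTF1 beside the metallothioneins, was the target called in both lines. Its CPM were 10.96 and 12.1 in the H2A.Z control libraries, 16.6 and 20.98 in the DKO-labelled libraries, 17.8 and 15.4 in Mll2 WT, and 23.8 and 26.3 in Mll2 KO. The mutant libraries of each line lay above its controls, by 0.70 ± 0.17 on the log2 scale in the H2A.Z line (edgeR adjusted p = 0.00565) and by 0.60 ± 0.16 in the Mll2 line (edgeR adjusted p = 0.0116). The differences of 1.63-fold and 1.51-fold are small beside those of Mt1. The first call was lost without the first H2A.Z control (0.64, adjusted p = 0.0651) or the second DKO-labelled library (0.53, adjusted p = 0.0888), and the second call without the second WT library (0.48, adjusted p = 0.159).

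Gclc, which encodes the catalytic subunit of the first enzyme of glutathione synthesis, was at 2.48 and 3.47 CPM in the H2A.Z control libraries and 6.61 and 5.79 in the DKO-labelled libraries, a rise of 1.05 ± 0.25 on the log2 scale (edgeR adjusted p = 0.00547). That call was lost without the first control (0.84, adjusted p = 0.0774) or the first DKO-labelled library (0.95, adjusted p = 0.0524). In the Mll2 line Gclc differed by 0.14 (adjusted p = 0.674). The selenoprotein W gene, listed as Sepw1, rose by 0.46 ± 0.11 in the DKO-labelled libraries (edgeR adjusted p = 0.00452) and differed by -0.19 in Mll2 KO (adjusted p = 0.209). Its call was lost without the second control (0.46, adjusted p = 0.0534) or the second DKO-labelled library (0.35, adjusted p = 0.0956).

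The selenoprotein H gene, listed as 2700094K13Rik, went the other way. Its CPM fell from 22.2 and 20.8 in Mll2 WT to 8.67 and 4.97 in Mll2 KO, a log2 difference of -1.66 ± 0.21 (edgeR adjusted p = 3.46e-05). In the DKO-labelled libraries it differed by -0.47 (edgeR adjusted p = 0.0933). It was called lower there with scaling by library totals and with the line fitted alone (-0.59 each, edgeR adjusted p = 0.0422 and 0.000303). Without the low-count filter it was also called lower there (-0.47, edgeR adjusted p = 0.0382). Slc39a10, the gene of a zinc importer that MTF1 is known to repress, was at 218 to 354 CPM in all libraries and differed by 0.09 and -0.12 in the H2A.Z and Mll2 lines (adjusted p = 0.582 and 0.433). Csrp1 and Hamp stayed below 8 CPM and were not called in either line.

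MTF1 acts with other promoter factors, and 5 of these were listed. Ep300 and Crebbp encode the coactivators p300 and CBP, and Sp1, Usf1 and Usf2 encode factors known to bind metallothionein promoters. In the DKO-labelled libraries 3 of the 5 were called higher, Ep300 by 0.74, Sp1 by 0.94 and Usf2 by 1.00 on the log2 scale (edgeR adjusted p = 0.00272, 0.000332 and 0.00264). In Mll2 KO Usf2 was higher by 0.94 (edgeR adjusted p = 0.00202) and Sp1 by 0.44 (edgeR adjusted p = 0.0335), and 0 of the 5 were called lower in either line. The shares over all tested genes were 19.4% higher and 11.5% lower in the H2A.Z line, and 14.4% and 16.2% in the Mll2 line. The Sp1 call in Mll2 KO was lost when any one of 7 of the 8 libraries was left out, with adjusted p up to 0.242 without the second KO library. The median difference of the 5 was 0.74 and 0.39 in the H2A.Z and Mll2 lines, against 0.12 and 0.02 over all tested genes.

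Zinc transporters were examined as the other side of zinc balance. The Slc30 family moves zinc out of the cytosol, and the Slc39 family moves it in. Of the 10 listed Slc30 genes 8 were tested, and 4 were called higher and 0 lower in the DKO-labelled libraries, with 3 higher and 2 lower in Mll2 KO. Of the 14 listed Slc39 genes 12 were tested, and 2 were called higher and 1 lower in each line. Over all tested genes, 19.4% were called higher and 11.5% lower in the H2A.Z line, and 14.4% and 16.2% in the Mll2 line. The exporter counts depended on single libraries and on the scaling. In the H2A.Z line they were 2 higher and 2 lower with scaling by library totals, and 1 higher when any one library of that line, or the second WT library, was left out. In the Mll2 line 0 exporters were called higher without the second WT library. For the importers, 0 were called higher in the H2A.Z line without the first control, and the number called lower in the Mll2 line lay between 0 and 3 over the alternatives. Slc30a1 and Slc39a10 are counted here as well as among the MTF1 targets.

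Slc30a4, whose product loads zinc into vesicles, differed most between the lines among the exporters. Its CPM were 37.0 and 29.7 in the H2A.Z control libraries, 47.6 and 47.5 in the DKO-labelled libraries, 61.8 and 53.8 in Mll2 WT, and 12.4 and 10.7 in Mll2 KO. It was lower in both KO libraries than in any other library, by -2.32 ± 0.15 on the log2 scale (edgeR adjusted p = 1.99e-08), and higher by 0.51 ± 0.14 in the DKO-labelled libraries (edgeR adjusted p = 0.0124). The difference between the lines was 2.83 ± 0.21 (edgeR adjusted p = 4.05e-07). The call in the H2A.Z line was lost without the second control (0.36, adjusted p = 0.188), without either DKO-labelled library (0.52 each, adjusted p = 0.0764 and 0.0701), without the second WT library (0.39, adjusted p = 0.0687), or when libraries were scaled by their totals alone (0.39, adjusted p = 0.0521).

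Slc30a7, whose product loads zinc into the early secretory pathway, fell in Mll2 KO by 2.76 on the log2 scale (edgeR adjusted p = 0.000151), from 2.08 and 2.54 to 0.438 and 0.235 CPM. In the DKO-labelled libraries it differed by -0.91 (adjusted p = 0.0648). Slc30a9 rose in both lines, by 0.69 in the H2A.Z line (edgeR adjusted p = 0.0114) and 0.72 in the Mll2 line (edgeR adjusted p = 0.00744), and Slc30a5 by 0.53 and 0.57 (edgeR adjusted p = 0.0219 and 0.0118). Leaving out any one library of the H2A.Z line ended the Slc30a9 call there (adjusted p from 0.0591 to 0.0799), and leaving out the second WT library ended it in both lines (adjusted p = 0.0537 and 0.0919). The Slc30a5 calls were lost without either H2A.Z control (adjusted p = 0.105 and 0.112), without the first DKO-labelled library (0.197), and in the Mll2 line without either WT library (0.0744 and 0.0862) or the second KO library, where the difference fell to 0.22 (0.175). In the H2A.Z line the Slc30a5 call was also lost without the second WT library (0.115) and with scaling by library totals (0.0903).

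Among the importers, Slc39a9 rose in both lines, by 0.60 ± 0.14 in the DKO-labelled libraries (edgeR adjusted p = 0.00449) and by 0.94 ± 0.14 in Mll2 KO (edgeR adjusted p = 0.00013). Without the first H2A.Z control the former was 0.55 (adjusted p = 0.0604). Slc39a7, whose product releases zinc from the endoplasmic reticulum, rose by 1.23 in Mll2 KO (edgeR adjusted p = 0.00138). Slc39a11 fell in the DKO-labelled libraries by 2.17 on the log2 scale (edgeR adjusted p = 0.00161), from 2.64 and 1.75 to 0.577 and 0.380 CPM. The remaining calls were small or rested on few counts. Slc39a6 was higher by 0.30 in the DKO-labelled libraries (edgeR adjusted p = 0.0439), a call lost under 11 of 14 alternatives. Slc39a14 was lower in Mll2 KO by -2.03 (edgeR adjusted p = 0.0289), at 0.562 and 0.429 CPM in WT and 0.0674 and 0.168 in KO, a call lost in 5 of 14.

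**Figure D4:**
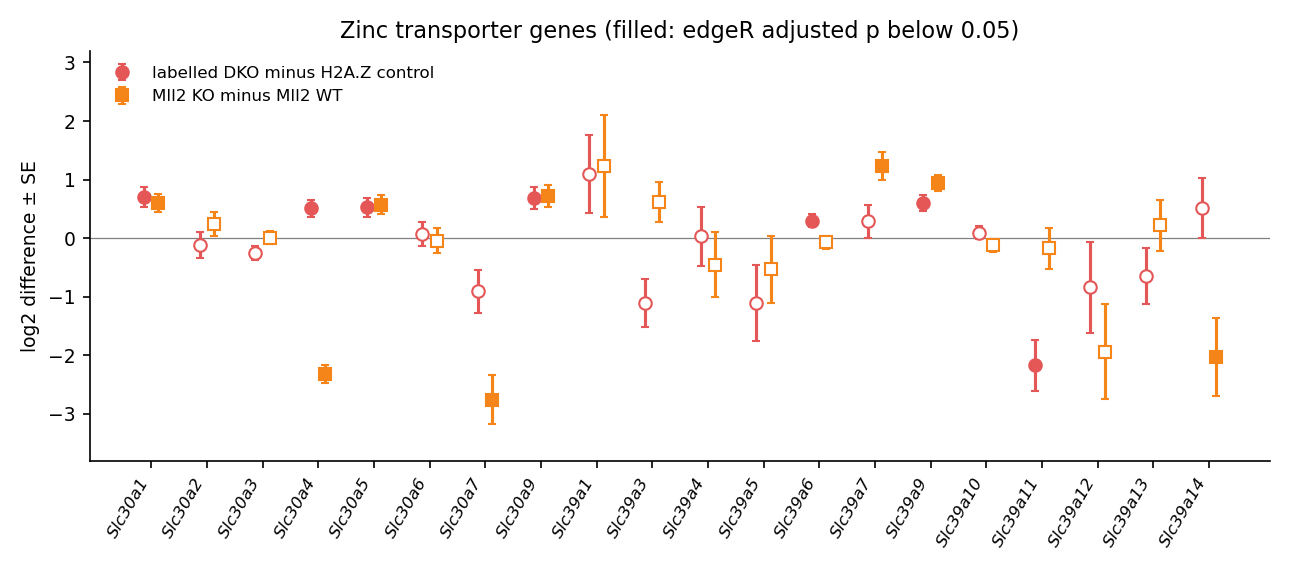
Log2 difference (± SE) of the tested zinc exporter (Slc30) and importer (Slc39) genes in the H2A.Z line (circles) and the Mll2 line (squares), with filled symbols for an edgeR adjusted p below 0.05. Slc30a4 and Slc30a7 lie lowest in the Mll2 line, at -2.32 and -2.76, and Slc39a11 lowest in the H2A.Z line, at -2.17.

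The genes around the cluster were then examined. Of 19 named genes nearest to it, 7 had enough counts to be tested. Each of the other 12 had at most 39 counts over all libraries. In the DKO-labelled libraries 1 was called higher and 1 lower, where the shares over all tested genes were 19.4% and 11.5%. In Mll2 KO 2 were called higher and 0 lower, where the shares were 14.4% and 16.2%. The median log2 difference of the 7 was -0.37 in the H2A.Z line and 0.03 in the Mll2 line, against 0.12 and 0.02 over all tested genes. The nearest tested neighbours, Bbs2, whose middle lies 95.2 kb to the Mt4 side of the Mt1 start, and Nup93, 92.4 kb beyond it, differed by -0.70 and -0.27 in the H2A.Z line and by 0.02 and -0.16 in the Mll2 line.

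Of the neighbours called in the H2A.Z line, Rspry1 rose by 0.63 (edgeR adjusted p = 0.00665), and Bbs2, a gene for a component of the ciliary BBSome, was lower (edgeR adjusted p = 0.0144). The Rspry1 call was lost without the second control (0.58, adjusted p = 0.0756), and that of Bbs2 when any one of the 4 libraries of the line was left out (adjusted p from 0.0524 to 0.115). Nup93 and Arl2bp missed the threshold in the main fit (edgeR adjusted p = 0.0521 and 0.0531). Both were called lower with scaling by library totals, by -0.40 and -0.98 (edgeR adjusted p = 0.0106 and 0.0357). The same held with RLE scaling (edgeR adjusted p = 0.0304 and 0.0495) and with the line fitted alone (0.000133 and 0.00489). DESeq2 called Nup93 lower (adjusted p = 0.0266), and edgeR without the low-count filter called Arl2bp lower (0.0275). The count of 1 lower neighbour thus depended on the processing in this line. Ogfod1 was called lower there without either Mll2 KO library (-0.50, edgeR adjusted p = 0.0485 and 0.0484). In the Mll2 line Nudt21, which encodes a factor for the choice of polyadenylation sites, rose by 0.96 (edgeR adjusted p = 0.00777), and lost the call without either WT library (adjusted p = 0.0656 and 0.0578). Ces5a was called higher (edgeR adjusted p = 0.00767) on 27 and 15 counts in KO against 0 and 1 in WT, and lost the call without the first WT library (adjusted p = 0.0771). No tested neighbour was at a high count in all 4 mutant libraries and a low one in all 4 controls, as Mt1 was.

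**Figure D5:**
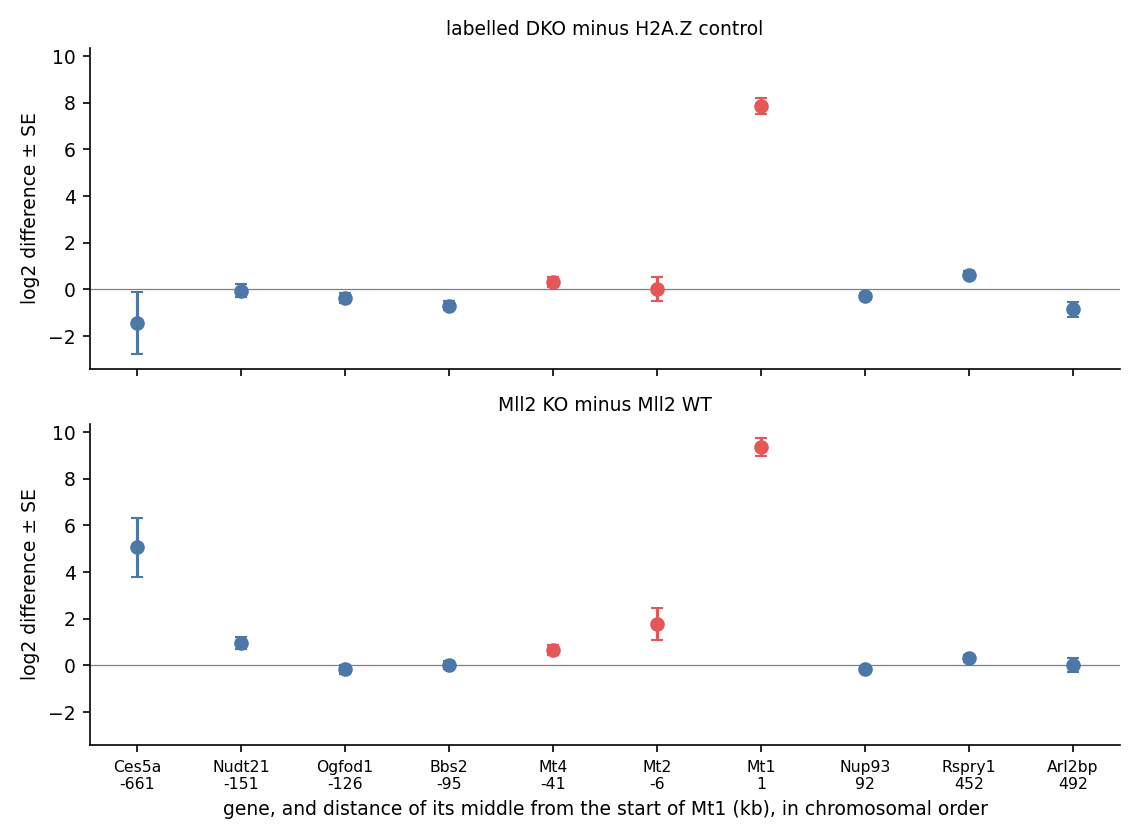
Log2 difference (± SE) of Mt1, Mt2 and Mt4 (red) and of the 7 tested neighbours (blue), evenly spaced in chromosomal order, with the distance of each gene's middle from the start of Mt1 in kb. Mt1 stands at 7.87 in the H2A.Z line (upper panel) and 9.36 in the Mll2 line (lower panel), while Bbs2 and Nup93, the nearest tested genes on either side, lie between -0.70 and 0.02.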

How the data were processed

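Raw counts per gene symbol, as whole numbers, were deposited by the authors for polyadenylated RNA of 8 libraries, made with a SMART-Seq cDNA kit and Nextera XT from 200 pg of cDNA each, per the labels' protocols. Trim Galore 0.6.4, STAR 2.7.3, RSEM 1.3.1 and mm10 were used, per the submitters' processing notes; the sources used here do not give their roles, the annotation or any rounding. The members and lists were chosen with earlier results of these data known.

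Counts were fitted with edgeR 4.0.16 in R 4.3.3: all 8 libraries, 4 group means, filterByExpr, TMM scaling (trimmed mean of M-values), robust quasi-likelihood tests with 4 residual degrees of freedom, and Benjamini-Hochberg adjustment over 16847 genes, called below 0.05. All libraries share 1 estimate of the spread, so leaving one out can change calls in the other line. CPM divide by the total times the TMM factor. The contrasts were mutant minus control in each line, the difference of those effects, and control against control. On data simulated for the H2A.Z comparison over 16847 genes, 81.6% of 2-fold and 99% of 4-fold changes were recovered. The simulation used the same dispersion for every gene and changed no gene of very low count. It therefore does not give the recovery for scarce or variable genes.

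Besides the members, the text names the listed MTF1 targets, up to 4 called members of each other list per comparison with the smallest p, 19 of the named genes nearest to the cluster (up to 10 on each side), the 8 genes most correlated with Mt1 and the 6 with the largest smaller rise of both lines, both at 10 CPM or more in their highest group (log2 CPM with a prior count of 2). The rankings by correlation and by shared rise left out Gm, LOC, Rik, microRNA and pseudogene symbols. The lists hold MTF1 targets, MTF1 partners, zinc exporters and importers, copper handling, oxidative and glucocorticoid response genes, and markers of oocytes, granulosa, theca and stroma, and blood and endothelium. Alternatives were other scalings (RLE, library totals), no low-count filter, DESeq2 1.42.0, each line fitted alone, a replicate block, and each library left out. An item that these rules would name is not reported here.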

Additional observations from a re-analysis of the deposited data

Results flagged for a closer look

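Of 50 named genes tested, 13 had mutant effects that differed between the lines in edgeR's test of the difference (H2A.Z line minus Mll2 line, adjusted p below 0.05). The share over all tested genes was 19.5%. Many of the 50 were named for their calls or differences in these same comparisons, so their count cannot be compared with that share. Among the MTF1 targets, the difference was 0.65 on the log2 scale for Sepw1 (adjusted p = 0.00775) and 1.19 for 2700094K13Rik (adjusted p = 0.0102). For the zinc transporters it was 2.83 for Slc30a4 (adjusted p = 4.05e-07), 1.85 for Slc30a7 (0.028), -1.99 for Slc39a11 (0.0212) and 2.55 for Slc39a14 (0.042).

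Among copper and redox genes, the difference was -0.90 for Ccs (edgeR adjusted p = 0.0293), -1.23 for the copper importer gene Slc31a1 (0.00311) and -0.49 for the thioredoxin gene Txn1 (0.0328). Of the glucocorticoid list, it was -2.31 for Cdkn1c (7.02e-05) and -1.69 for the receptor gene Nr3c1 (0.00014). It was -6.51 for Ces5a (0.0256), on at most 27 counts a library, and -2.55 for Krt79 (0.000505). Mt4 and Mtf1 were not among the 13, and Mt1 and Mt2 were not tested.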

How the results depend on the processing

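The Mt1 difference stayed between 7.33 and 8.61 on the log2 scale in the H2A.Z line and between 9.04 and 9.74 in the Mll2 line over all 14 alternatives. Genes called in the H2A.Z comparison numbered 5198, with a range of 2642 to 6568 when 1 library was left out. For the Mll2 comparison the count was 5158 (2681 to 6819), and for the difference between the lines 3291 (1639 to 4639). Fitting each line alone gave 6777 and 3466. The Mtf1 difference ranged from 0.32 to 0.49 in the H2A.Z line (adjusted p = 0.0616 without the first control) and from -0.01, without the second WT library, to 0.12 in the Mll2 line.

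Scaling by library totals turned Slc39a10 to -0.03 in the H2A.Z line (-0.04 with the line fitted alone) and to 0.01 in the Mll2 line, and in the Mll2 line Csrp1 to 0.00, Hamp to 0.02 and Slc39a6 to 0.05. Leaving out 1 library turned the sign of uncalled differences in the H2A.Z line for Slc39a10 (-0.04 to 0.18), Csrp1 (-0.15 to 0.07), Nudt21 (-0.19 to 0.06) and Ces5a (-5.39 to 3.93). It did so in the Mll2 line for Csrp1 (-0.27 to 0.01), Gclc (-0.14 to 0.36), Hamp (-0.42 to 0.28), Slc39a11 (-0.51 to 0.10), Slc39a6 (-0.27 to 0.08), Slc31a1 (-0.21 to 0.37), Bbs2 (-0.12 to 0.11) and Arl2bp (-0.42 to 0.36). The cause was not tested.

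Replicate numbers were not taken as pairs, since the labels name nothing shared and differences between replicates correlated by 0.04 and -0.022 between control and mutant. With a replicate block, 4983 and 4944 genes were called in the H2A.Z and Mll2 lines, Mt1 differed by 7.88 and 9.36, Slc39a6 lost its call (adjusted p = 0.0505), Arl2bp was called in the H2A.Z line (-0.88, adjusted p = 0.0444) and was at -0.01 in the Mll2 line. Depth limits Mt3, with 3 counts in all, and Mt2, at 8 to 68 counts a library.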

Other observations

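Genes of copper handling, oxidative defence and the glucocorticoid response were also examined, since metallothionein genes are known to respond to copper, oxidants and glucocorticoids. Of 11 tested copper genes, 3 were called higher and 2 lower in the DKO-labelled libraries, and 2 higher and 1 lower in Mll2 KO. For these and the other lists counted here, 19.4% of all tested genes were called higher and 11.5% lower in the H2A.Z line, and 14.4% and 16.2% in the Mll2 line, with medians over all tested genes of 0.12 and 0.02. Ccs, which encodes the copper chaperone of superoxide dismutase, fell in both lines, by 1.78 and 0.88 on the log2 scale (edgeR adjusted p = 9.76e-06 and 0.00274). Slc31a1, the gene of the main copper importer, fell by 1.10 in the DKO-labelled libraries (edgeR adjusted p = 0.000391) and differed by 0.13 in Mll2 KO (0.60). Cox11, a copper chaperone gene of cytochrome oxidase, rose by 2.28 in Mll2 KO (edgeR adjusted p = 5.55e-05) and by 1.06 in the DKO-labelled libraries (edgeR adjusted p = 0.00966). The latter call was lost without the second control (0.97, adjusted p = 0.0934) or the first DKO-labelled library (0.81, adjusted p = 0.127). The median difference of the copper genes was 0.22 and 0.13 in the H2A.Z and Mll2 lines.

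Of 14 tested oxidative response genes, 4 were called higher and 2 lower in the DKO-labelled libraries, and 3 higher and 2 lower in Mll2 KO, with medians of 0.11 and -0.11. Sod1, the gene of cytosolic superoxide dismutase, rose by 0.65 and 0.71 (edgeR adjusted p = 0.00486 and 0.0026). Without the second H2A.Z control or the second WT library its call in the H2A.Z line was lost (adjusted p = 0.053 and 0.0505). Of 9 tested glucocorticoid response genes, 2 were called higher and 1 lower in the DKO-labelled libraries, and 6 higher and 1 lower in Mll2 KO, with medians of 0.33 and 0.51. Nr3c1, which encodes the glucocorticoid receptor, was at 10.1 and 9.66 CPM in Mll2 WT and 43.2 and 40.9 in Mll2 KO, and differed by 2.08 (edgeR adjusted p = 1.52e-07). In the H2A.Z line it differed by 0.39 (adjusted p = 0.0977), and the difference between the lines is given above.

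Of the 12 oocyte markers, 2 were called higher and 0 lower in the DKO-labelled libraries, and 0 higher and 3 lower in Mll2 KO. Of 15 tested granulosa markers, 5 were called higher and 2 lower in the DKO-labelled libraries, and 4 higher and 5 lower in Mll2 KO. Of the theca and stroma markers 2 were tested, with 0 called in the H2A.Z line and 1 higher in Mll2 KO. Of the blood and endothelial markers 3 were tested, with 1 called higher in the DKO-labelled libraries and 1 higher and 1 lower in Mll2 KO.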
